A study of Mus musculus with 22 samples.

Results

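Testis macrophage genes are described here by 10 members, Csf1r, Csf1, Cd68, Cd163, Mrc1, Cd14, Aif1, Tyrobp, Fcer1g and Laptm5, taken by gene symbol from the 17931 symbols of a table of RNA-seq read counts. All 10 had a row and all 10 were among the 14640 genes with enough reads to be tested. The RNA came from whole testes of 3 wild-type (WT) mice and 3 MLX knockout (KO) mice, 7 months old. The WT males were verified fertile breeders, and the KO males were constitutive knockouts in which the part of Mlx that encodes the DNA-binding and dimerization domains had been removed with Meox2-Cre, a Cre active in the early embryo that was later crossed out. The animals formed 3 WT and KO littermate pairs, and the KO allele was made in 129S4 embryonic stem cells, with 2 lines derived from separate clones; which line each library came from is not given in the sources used here. MLX is the nutrient-sensing partner of MondoA and ChREBP in the extended MYC network of transcription factors.

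Resident macrophages of the testis lie in the interstitium beside the Leydig cells and on the wall of the seminiferous tubules. They depend on the growth factor CSF1 and its receptor CSF1R, take up dying cells and debris, and are known for contacts with Leydig cells and for immune tolerance of the germ cells. In RNA from a whole testis, more cells of a type and more RNA per cell cannot be told apart, and this holds for every gene below. Levels here are also shares of a library, not amounts per testis, so a loss of RNA from other cells raises the share of the rest. The part of such a loss in the changes below was not tested.

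Libraries held 16674678 to 19742726 counted reads. Library KO1 stood apart from KO2 and KO3, with a chi-square per degree of freedom over genes of 8.22 and 8.23 against each of them, while KO2 against KO3 gave 2.73; without KO1 the members' calls were again 9 higher and 1 lower, with a median log2 fold change (LFC, KO over WT) of 1.32. Mlx itself had 128, 96 and 98 reads in the WT libraries and 94, 109 and 102 in the KO libraries, so the groups overlapped (LFC -0.18, edgeR adjusted p = 0.326); the count covers the whole gene, including parts that were not deleted, and therefore does not check the labels. Marker genes of other testis cells also differed between the genotypes: all 9 Leydig markers and all 9 Sertoli markers tested were higher in KO, and all 8 spermatid markers were lower.

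Of the 10 macrophage genes, 9 were higher and 1, Aif1, was lower in KO testes at an adjusted p under 0.05 (edgeR quasi-likelihood test, Benjamini-Hochberg over all genes). Over all genes tested, 45.4% passed the same threshold, 24.8% higher and 20.6% lower. In all 10 members the WT and KO libraries did not overlap in CPM (read counts scaled to a common library size), which was so for 56.2% of all genes tested. Without overlap, each KO library must lie on the same side of its littermate in 3 of 3 pairs, so the pair count adds nothing to this. The median LFC of the members was 1.30, beside 0.025 over all genes tested. With libraries scaled by their size alone these medians were 1.44 and 0.164. The 8 members with an LFC above 1 had folds of 2.07 to 2.98 and LFC percentiles of 94.8 to 98.5 among all genes tested. Mrc1 rose less, and Aif1 fell. With littermate pairs as a replicate block in the fit, 46.1% of all genes tested passed, and the members again gave 9 higher and 1 lower.

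**Figure D1:**
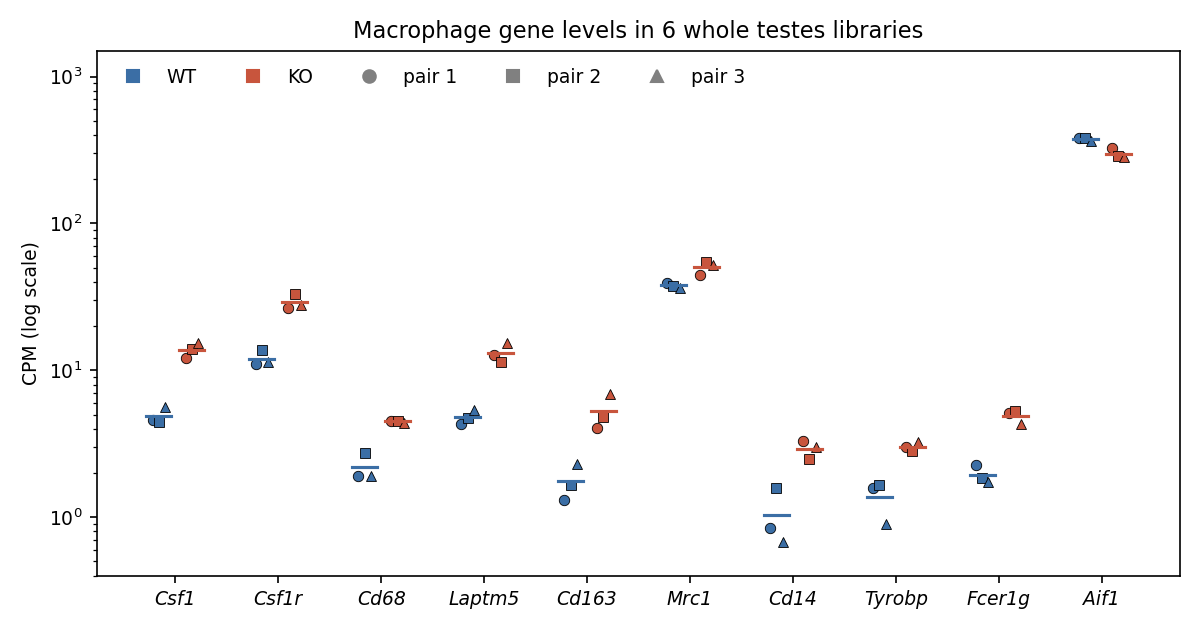
Level of each macrophage gene in every library, in CPM on a log axis, with the 3 WT and the 3 KO libraries as points shaped by littermate pair and the group mean as a line. The KO points lie above all WT points in 9 genes and below them in Aif1, whose level near 300 to 380 CPM stands far above the rest.

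The promoters of 3 members with differing changes are shown, for the sequence beside which their values can be read: Laptm5, which rose most of the 3, Mrc1, which rose less, and Aif1, which fell. Each run holds 250 bases before and 50 after the RefSeq start on GRCm38.p6, and capitals mark the letters GAGGAA, or their reverse complement TTCCTC, the core bound by PU.1, the myeloid lineage factor encoded by Spi1. They lie at chr4:130913066-130913365 (plus strand) for Laptm5, at chr2:14229164-14229463 (plus strand) for Mrc1, and at chr17:35176003-35176302 (minus strand) for Aif1.
Laptm5: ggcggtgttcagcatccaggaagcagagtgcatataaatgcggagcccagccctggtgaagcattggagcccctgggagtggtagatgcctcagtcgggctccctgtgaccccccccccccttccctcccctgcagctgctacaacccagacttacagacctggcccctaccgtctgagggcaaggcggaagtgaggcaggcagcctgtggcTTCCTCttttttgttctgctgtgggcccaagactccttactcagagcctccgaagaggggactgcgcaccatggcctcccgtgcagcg
Mrc1: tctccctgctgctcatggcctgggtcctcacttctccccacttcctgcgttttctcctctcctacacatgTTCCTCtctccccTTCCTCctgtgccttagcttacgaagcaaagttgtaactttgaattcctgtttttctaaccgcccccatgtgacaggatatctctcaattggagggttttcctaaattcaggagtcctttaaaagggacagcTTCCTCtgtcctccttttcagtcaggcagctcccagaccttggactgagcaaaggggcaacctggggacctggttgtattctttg
Aif1: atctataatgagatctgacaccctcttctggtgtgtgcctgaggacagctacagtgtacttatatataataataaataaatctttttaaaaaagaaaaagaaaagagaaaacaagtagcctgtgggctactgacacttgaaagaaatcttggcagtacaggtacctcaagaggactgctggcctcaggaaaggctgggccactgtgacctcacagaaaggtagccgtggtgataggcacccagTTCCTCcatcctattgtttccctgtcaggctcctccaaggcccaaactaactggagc

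Promoters were matched for 7 members, Csf1, Cd68, Cd163, Mrc1, Aif1, Fcer1g and Laptm5, and not for Csf1r, Cd14 and Tyrobp. Searched on both strands, GAGGAA was in 4 of the 7, Cd68, Mrc1, Aif1 and Laptm5, beside 28.3% of 32851 mouse promoters of the same length. The one match in Aif1 began 7 bases before the start, that in Laptm5 38 bases before it, and the 3 in Mrc1 began 180, 167 and 35 bases before it. The E-box CACGTG, the palindromic element that MYC-network dimers bind, was in 0 of the 7 and in 7.15% of all promoters. The 2 letter strings share no overlap. A match describes the letters only, and the member that fell held the PU.1 letters as did 3 members that rose.

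Csf1r, the receptor tyrosine kinase on which macrophage survival depends, had 210, 215 and 201 reads in WT and 515, 595 and 527 in KO. Its level was 12.03 ± 1.43 CPM in WT and 29.1 ± 3.35 CPM in KO (SD, n = 3), and the highest WT library stood at less than the lowest KO library. The fold was 2.43 (LFC 1.28, SE 0.11, edgeR adjusted p = 1.19e-05), and the 3 littermate differences were nearly equal, at 1.263, 1.268 and 1.300 on the log2 scale. The exons of Csf1r (chr18:61105572-61131139, GRCm38.p6, plus strand) overlap those of Hmgxb3 on the opposite strand by 873 bases, the only such overlap with another gene among the members. Whether the counting used strand is not given in the sources used here, so reads of the 2 genes may not be fully separated.

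Csf1, the ligand of that receptor, had 87, 70 and 100 reads in WT and 237, 252 and 290 in KO. The groups were far apart, at 4.89 ± 0.650 and 13.8 ± 1.57 CPM. The fold was 2.82 (LFC 1.497, SE 0.13, edgeR adjusted p = 1.62e-05), and the littermate differences were 1.414, 1.647 and 1.445. The receptor and its ligand thus both rose, in every pair, and their ratio within a library overlapped between the genotypes: log2 Csf1 over Csf1r was -1.28 in WT and -1.07 in KO, a difference of 0.21 (exact permutation test, two-sided, p = 0.4, unadjusted). Within littermate pairs the ratio was higher in KO in 3 of 3 (exact sign-flip test, p = 0.25, the smallest that 3 pairs allow).

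Among the other 7 genes fixed for the CSF family, 5 were tested, 3 rose, 0 fell and 2 did not pass, with a median LFC of 0.92. Csf2rb, the shared beta chain of the GM-CSF, IL-3 and IL-5 receptors, rose from 12, 12 and 24 reads to 57, 47 and 90 (LFC 1.90, SE 0.33, edgeR adjusted p = 0.000876). Il34, the alternative ligand of CSF1R, had 11, 12 and 15 reads in WT and 25, 23 and 30 in KO (LFC 0.92, SE 0.28, edgeR adjusted p = 0.0177). This call was lost with DESeq2 (adjusted p = 0.124), without WT1 (edgeR adjusted p = 0.0782) and without KO3 (edgeR adjusted p = 0.0718). Csf2rb2 (LFC 1.00, edgeR adjusted p = 0.0185) lost its call without WT1 (0.0501), WT2 (0.0607) or KO3 (0.0897), so the count of 3 was 1 without WT1 or without KO3. Csf2ra, the GM-CSF receptor alpha chain, had 2.99 to 4.06 CPM in WT and 3.25 to 4.39 CPM in KO, with overlapping groups (LFC 0.16, edgeR adjusted p = 0.499).

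Cd68, a glycoprotein of the lysosomal membrane and a general macrophage marker, had 36, 43 and 34 reads in WT and 88, 82 and 83 in KO. The KO libraries were close together, at 4.49 ± 0.0831 CPM, and the WT libraries were more spread, at 2.18 ± 0.477 CPM. The fold was 2.07 (LFC 1.05, SE 0.18, edgeR adjusted p = 0.000964). WT2 was the highest WT library, and its pair gave the smallest littermate difference, 0.730 beside 1.258 and 1.197.

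Laptm5, a lysosomal membrane protein of blood-derived cells, had 82, 75 and 95 reads in WT and 247, 207 and 288 in KO. Every KO library held more than double the highest WT count. The level went from 4.82 ± 0.518 to 13.1 ± 1.93 CPM, a fold of 2.73 (LFC 1.45, SE 0.14, edgeR adjusted p = 2.55e-05). The WT spread, a coefficient of variation of 10.8%, was what counting error alone gives at this depth (10.9%).

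Cd163, the scavenger receptor for haemoglobin bound to haptoglobin and a marker of resident macrophages, had 25, 26 and 41 reads in WT and 79, 87 and 130 in KO. Replicate 3 was the highest of its group in both genotypes, and the 3 littermate differences were alike, at 1.628, 1.542 and 1.574. The level was 1.76 ± 0.506 CPM in WT and 5.26 ± 1.46 CPM in KO. The fold was 2.98 (LFC 1.58, SE 0.25, edgeR adjusted p = 0.000597), close to those of Cd14 and Csf1, and the order of these genes changed with the library left out: without WT2 Cd14 had an LFC of 1.94 beside 1.54 for Cd163, and without KO3 Cd14 had 1.51 beside 1.34.

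Mrc1, the mannose receptor CD206, had 749, 591 and 646 reads in WT and 866, 990 and 989 in KO. The groups did not overlap, but they lay close, at 37.8 ± 1.55 and 50.6 ± 5.27 CPM. The fold was 1.34 (LFC 0.42, SE 0.08, edgeR adjusted p = 0.00141), and the pair of KO1 gave the smallest littermate difference, 0.178 beside 0.543 and 0.523. Its LFC percentile among all genes was 77.9.

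Cd14, the co-receptor that hands lipopolysaccharide to TLR4, was among the lowest of the members, with 16, 25 and 12 reads in WT and 64, 45 and 57 in KO. The WT coefficient of variation was 46.9%, beside 23.8% from counting error alone. The level was 1.04 ± 0.486 CPM in WT and 2.94 ± 0.412 CPM in KO, a fold of 2.88 (LFC 1.52, SE 0.29, edgeR adjusted p = 0.00154). The littermate differences ranged from 0.647 in pair 2 to 2.157 in pair 3, so the size of the change is less certain than for Csf1r.

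Tyrobp, the ITAM-bearing adaptor DAP12 that passes on the signal of TREM2 and related receptors, had 30, 26 and 16 reads in WT and 58, 51 and 61 in KO. The level was 1.38 ± 0.415 and 3.01 ± 0.205 CPM. The fold was 2.19 (LFC 1.13, SE 0.24, edgeR adjusted p = 0.00287). The low WT3 library gave the largest littermate difference, 1.840 beside 0.920 and 0.771.

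Fcer1g, the gamma chain that serves Fc receptors in the same manner, had 43, 29 and 31 reads in WT and 99, 96 and 82 in KO. The KO libraries all lay well above the WT libraries. The level was 1.95 ± 0.276 and 4.92 ± 0.511 CPM, a fold of 2.50 (LFC 1.32, SE 0.18, edgeR adjusted p = 0.000202).

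Aif1, which encodes the calcium-binding protein IBA1 that is widely stained to show macrophages and microglia, had 7229, 6019 and 6487 reads in WT and 6281, 5239 and 5352 in KO. It alone among the members was lower in KO, at 299 ± 21.8 CPM beside 377 ± 9.36 CPM in WT, and the groups did not overlap. The fold was 0.794 (LFC -0.33, SE 0.06, edgeR adjusted p = 0.000896), with littermate differences of -0.234, -0.401 and -0.369. With libraries scaled by size alone the LFC was -0.19, still past the threshold.

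**Figure D2:**
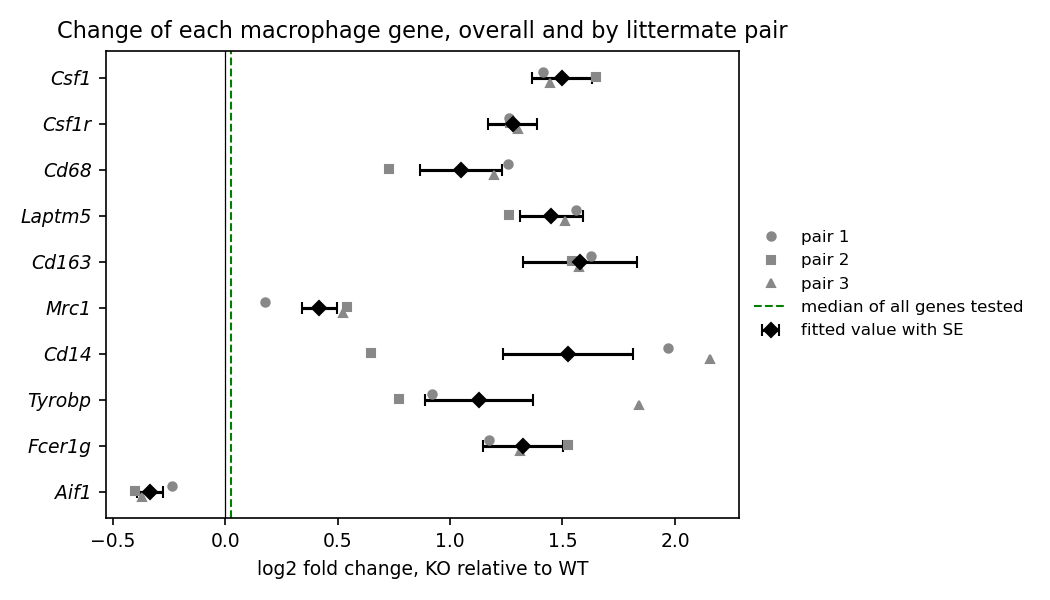
LFC of each macrophage gene from the edgeR fit, KO over WT, as a point with its standard error, beside the 3 littermate differences; the dashed line is the median of all genes tested. Every gene but Aif1 lies to the positive side, and Mrc1 at 0.42 lies apart from the 8 genes between 1.05 and 1.58.

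Aif1 also stood apart in level. Per length of exon, as RPKM (CPM divided by exon length in kilobases), it was at 246 ± 6.11 in WT and 195 ± 14.3 in KO, which was 118-fold over Csf1r in WT and 38.7-fold in KO. Aif1 made up 84.5% to 85% of the summed CPM of the 10 members in the WT libraries and 68.1% to 73.6% in the KO libraries. The sum of the other 9 members rose from 66.3 to 69.95 CPM in WT to 116 to 133 CPM in KO. The 8 genes whose levels over the 6 libraries were most like Aif1 were Ssx2ip, Ahcyl2, Ccdc30, Sccpdh, Znhit1, Larp7, Edf1 and Als2cr12. Their Pearson's r was 0.9983 to 0.9998 across libraries that fall into the 2 genotypes. All were lower in KO, with LFCs from -0.379 to -0.205. Which cells gave the Aif1 reads was not tested. GENCODE lists 7 Aif1 transcripts on the minus strand of chromosome 17 (gene at chr17:35170986-35176083). Of the 4 coding ones, Aif1-206 starts at 35176001, while Aif1-201, Aif1-203 and Aif1-204 start downstream, at 35173278, 35172819 and 35172631; the deposited counts do not separate them.

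The order of levels per length was the same in both genotypes: Aif1, Mrc1, Fcer1g, Csf1r, Tyrobp, Cd68, Laptm5, Csf1, Cd14 and Cd163. In WT testes Mrc1 was at 5.94 ± 0.243 RPKM, 4 genes followed within overlapping ranges from Fcer1g at 2.23 ± 0.316 down to Cd68 at 1.74 ± 0.38 RPKM, and Cd163 came last at 0.322 ± 0.0926 RPKM. Csf1, Cd14 and Cd163 also could not be ordered beyond the spread between WT neighbours. In KO testes Mrc1 was at 7.94 ± 0.828 RPKM, Fcer1g, Csf1r and Tyrobp overlapped from 5.63 ± 0.585 to 4.52 ± 0.307 RPKM, Cd68 overlapped Laptm5, and Cd163 was again last at 0.963 ± 0.266 RPKM. Mrc1 was thus well above the next genes in WT and nearer to them in KO.

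To ask whether the members kept their proportions, each was set against Csf1r within its own library. The overlap of Csf1r with Hmgxb3 given above bears on all 9 ratios, and its part in them was not tested. In 6 of the 9 ratios the genotypes overlapped, those of Csf1, Cd163, Cd14, Tyrobp, Fcer1g and Laptm5, with differences in mean log2 ratio from -0.16 to 0.25 (exact permutation p from 0.4 to 0.9, two-sided, unadjusted over 9 ratios). Of these, Csf1 and Cd163 were higher relative to Csf1r in 3 of 3 littermate pairs (exact sign-flip p = 0.25, the smallest that 3 pairs allow). In 3 ratios the genotypes did not overlap and were lower in KO, each at p = 0.1, the smallest that 3 against 3 libraries allow in an exact permutation test. Of the other 14639 genes tested, 90.1% were lower relative to Csf1r without overlap and 0.697% were higher. As ratios of CPM, not divided by exon length, Aif1 over Csf1r went from 31.2 in WT to 10.3 in KO, a log2 difference of -1.60. Mrc1 over Csf1r, on the same scale, went from 3.14 to 1.74, a log2 difference of -0.85. Cd68 over Csf1r differed by less, -2.42 ± 0.12 in WT and -2.66 ± 0.16 in KO on the log2 scale, and its p was 0.2 in the exact permutation test with a prior count of 0.5 in place of 2.

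**Figure D3:**
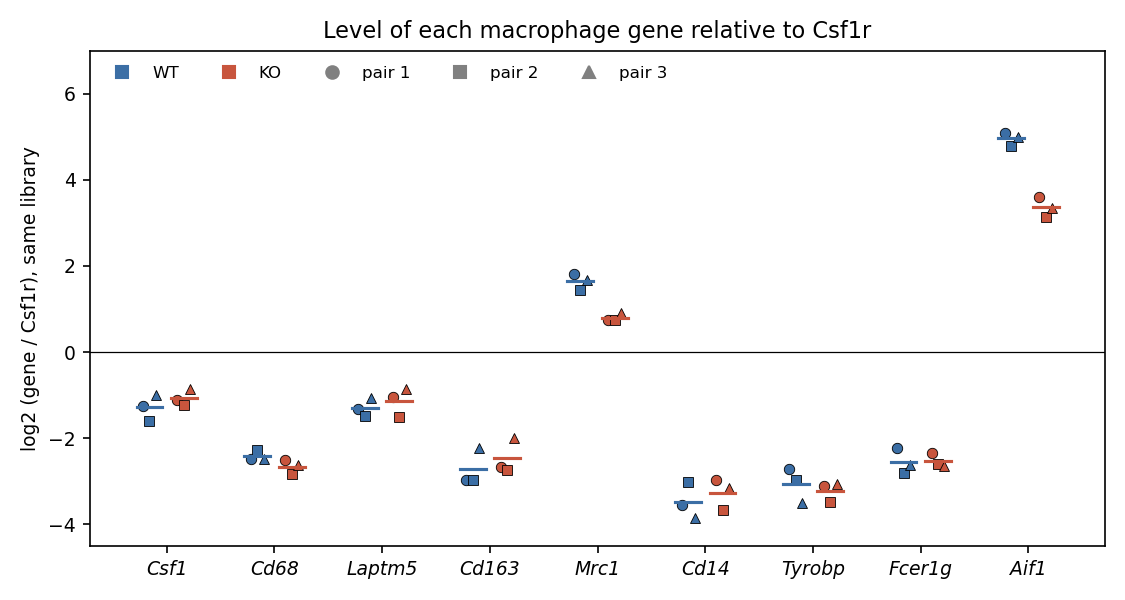
Log2 ratio of each macrophage gene to Csf1r within a library, with the 3 WT and 3 KO libraries as points shaped by littermate pair and group means as lines. The genotypes separate in Aif1, Mrc1 and, narrowly, Cd68, and overlap in the other 6 genes.

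Markers of the Leydig and Sertoli cells rose beside the members. Summed CPM of the Leydig list was 901 to 924 in WT and 1910 to 2530 in KO, that of the Sertoli list 1010 to 1060 and 1550 to 1880, and that of the spermatid list 21000 to 21900 and 12300 to 15100. Insl3, a Leydig hormone, had an LFC of 1.93 (edgeR adjusted p = 1.94e-07), above every member. Set against the mean log2 CPM of the Leydig markers in the same library, 8 of the 10 members overlapped between the genotypes, 0 were higher without overlap, and Mrc1 (-0.71) and Aif1 (-1.46) were lower without overlap. Of all genes tested, 1.07% were higher and 86.9% lower without overlap on this scale. Set against the Sertoli markers, 5 members were higher without overlap, Csf1r by 0.49, Csf1 by 0.70, Cd163 by 0.75, Fcer1g by 0.51 and Laptm5 by 0.64, while Mrc1 (-0.37) and Aif1 (-1.12) were again lower; over all genes tested these shares were 3.34% higher and 78.7% lower. Of the other testis cells, 2 of 7 endothelial markers rose and 0 fell, and 4 rose with libraries scaled by size alone. Of 6 peritubular myoid markers 4 rose and 1 fell, and their summed CPM was 310 to 369 in WT and 309 to 325 in KO. Over all genes tested, 24.8% were higher and 20.6% lower. Of 6 spermatocyte markers 0 rose and 4 fell. That count of 4 was 1 with libraries scaled by size alone and without WT1 or KO2, and 2 without KO3. The part of these cell types in the members' changes was not tested.

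A list of 14 further pan-macrophage genes was read in the same fit. Of these 13 had a row, Adgre1 (F4/80) being the one not analysed here, and all 13 rose, with a median LFC of 1.65. The count of 13 was 12 without WT1, without KO2 and in DESeq2 with the replicate block. Mpeg1, the pore-forming perforin-2, had 325, 228 and 331 reads in WT and 1064, 985 and 886 in KO (LFC 1.63, SE 0.10, edgeR adjusted p = 1.41e-06). Lyz2, the lysozyme of myeloid cells, went from 195, 172 and 217 reads to 770, 680 and 728 (LFC 1.79, SE 0.08, edgeR adjusted p = 2.35e-07). Neither gene overlapped between the groups.

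Itgam (CD11b) was at 10, 8 and 13 reads in WT and 62, 47 and 42 in KO (LFC 2.17, edgeR adjusted p = 0.000122). Ptprc (CD45), carried by all leukocytes, was at 37, 19 and 44 and at 124, 72 and 70 reads (LFC 1.31, edgeR adjusted p = 0.003). The largest changes in the list were in genes of few reads, Cd52 (LFC 2.38) and Ly86 (LFC 2.31), with at most 14 reads in a WT library.

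Of 12 markers of resident testis and tissue macrophages, 9 were tested and all 9 rose, with a median LFC of 1.38. Lyve1, Marco and Timd4 had too few reads. The count of 9 was 7 without KO3, 8 without WT1, WT3 or KO2 and in DESeq2 with the replicate block, and 11 without WT2. Pf4 kept its call in 7 of the 14 alternatives. Stab1, a scavenger receptor, went from 190, 170 and 203 reads to 284, 455 and 553 (LFC 1.10, SE 0.20, edgeR adjusted p = 0.00142). The lectins Clec10a (LFC 1.57) and Cd209f (LFC 1.56) kept their calls in all 14 alternatives. Vsig4 overlapped between the groups (LFC 1.67, edgeR adjusted p = 0.0345) and kept its call in 8 of the 14; it was lost without WT1 (0.0896), WT3 (0.112), KO2 (0.0935) or KO3 (0.141).

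Monocyte markers were sparser. Of 8, 5 were tested, 2 rose and 3 did not pass, with a median LFC of 0.53. Ccr2, the receptor through which monocytes leave the marrow, had 16, 1 and 7 reads in WT and 91, 24 and 26 in KO (LFC 2.43, SE 0.64, edgeR adjusted p = 0.00993), without overlap. Cx3cr1, the fractalkine receptor, overlapped, with 95, 64 and 75 reads in WT and 201, 143 and 75 in KO (LFC 0.74, edgeR adjusted p = 0.0494). Its call was lost without WT1 (0.0661), WT2 (0.134), WT3 (0.111), KO1 (0.197) or KO2 (0.113). The count of 2 was therefore 1 in several of these fits, among them those without WT2, KO1 or KO2.

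Of 10 transcription factors of the myeloid lineage, 9 were tested, 6 rose, Klf4 fell and 2 did not pass. Spi1, which encodes PU.1, was at 7, 13 and 12 reads in WT and 31, 28 and 32 in KO (LFC 1.39, SE 0.30, edgeR adjusted p = 0.00352). Irf8, a partner of PU.1, was at 108, 76 and 87 reads and at 193, 430 and 324 reads (LFC 1.71, SE 0.26, edgeR adjusted p = 0.000436). Cebpb rested on KO2, with 23, 10 and 5 reads in WT and 28, 90 and 30 in KO (LFC 1.87, edgeR adjusted p = 0.018); it lost its call without KO2 (0.0883), WT2 (0.0599) or WT3 (0.0623), and 4 factors rose without WT2 or without KO2. Klf4 differed little (LFC -0.17, edgeR adjusted p = 0.0177) and lost its call with libraries scaled by size alone (LFC -0.03), and without WT2 (0.0746), WT3 (0.066) or KO2 (0.0902). In WT Klf4 was at 80.3 RPKM, beside 0.232 for Spi1 and 0.729 for Irf8. Which cells gave the Klf4 reads was not tested.

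Receptors and kinases that work with Tyrobp and Fcer1g were read as a list of 20, of which 14 were tested, 7 rose, 2 fell and 5 did not pass. Syk, the kinase that both adaptors recruit, went from 29, 26 and 35 reads to 148, 114 and 166 (LFC 2.14, SE 0.18, edgeR adjusted p = 1.29e-05). Trem2, the lipid-sensing receptor that pairs with Tyrobp, went from 6, 22 and 14 reads to 42, 57 and 45 (LFC 1.65, SE 0.37, edgeR adjusted p = 0.00433). Ptpn6, the phosphatase SHP-1 that opposes them, also rose (LFC 1.37, edgeR adjusted p = 0.00158). Fcgr3, an Fc receptor that needs Fcer1g, had 1189, 958 and 302 reads in WT and 358, 367 and 358 in KO. Its groups overlapped because WT3 lay below every KO library, and its LFC of -1.28 (edgeR adjusted p = 0.0121) had no call without WT2 (0.0555). The count of genes that fell was 0 without WT2 and 1 without WT3, KO2 or KO3.

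Genes of uptake of dying cells and lipids gave 8 higher, 0 lower and 6 not past among 14 tested. Mertk, the kinase that recognises phosphatidylserine-tagged cells and is also made by Sertoli cells, went from 95, 107 and 105 reads to 200, 268 and 273 (LFC 1.16, SE 0.16, edgeR adjusted p = 0.000246). Cd36, a fatty acid and scavenger receptor, had an LFC of 1.13 (edgeR adjusted p = 0.000254), and Colec12 one of 0.99 (edgeR adjusted p = 0.00259). Scarb1, the HDL receptor of steroid-making cells, moved less (LFC 0.19, edgeR adjusted p = 0.0252) and kept its call in 8 of the 14 alternatives, losing it without WT1 (0.116), WT2 (0.0832), KO2 (0.0801) or KO3 (0.0567).

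Among the partners of Cd14 in sensing lipopolysaccharide, 9 of 13 were tested, 5 rose, 0 fell and 4 did not pass. Tlr4, the signalling receptor, rose from 9, 12 and 13 reads to 30, 27 and 44 (LFC 1.45, SE 0.31, edgeR adjusted p = 0.00287), and Lbp, which carries lipopolysaccharide to CD14, rose too (LFC 1.44, edgeR adjusted p = 4.37e-05). Tlr2 had an LFC of 1.23 (edgeR adjusted p = 0.0052). Irak3, an inhibitor of this signal, was at 60.9 to 62.2 CPM in WT and at 46.4 to 61.8 CPM in KO; it did not pass (LFC -0.22, edgeR adjusted p = 0.0663), but did with the replicate block for littermate pairs (edgeR adjusted p = 0.0216). In DESeq2 it passed without that block (adjusted p = 0.0371) and not with it (adjusted p = 0.055).

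Beside the haemoglobin receptor Cd163, 7 genes of haem and iron handling were tested, of which 6 rose and 1 did not pass. In WT the ferritin chains Ftl1 and Fth1 were at 65.1 and 43.2 RPKM, far above Cd163 at 0.322 RPKM. Which cells gave the reads of these genes was not tested. Hmox1, the oxygenase that opens haem, went from 185, 144 and 182 reads to 319, 358 and 431 (LFC 1.02, SE 0.12, edgeR adjusted p = 9.96e-05). Slc40a1, the iron exporter ferroportin, had an LFC of 1.20 (edgeR adjusted p = 0.00282), and the ferritin chains Ftl1 and Fth1 had LFCs of 0.99 and 0.65. Alas2, the red cell haem synthase, was the only red cell gene tested and was level (LFC 0.03), with the summed red cell list at 19.2 to 21.5 CPM in WT and 19.7 to 21.0 CPM in KO. Of 12 activation cytokines and enzymes, only 4 had enough reads to test; Tgfb1 rose (LFC 0.51, edgeR adjusted p = 0.00733) and 3 did not pass.

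**Figure D4:**
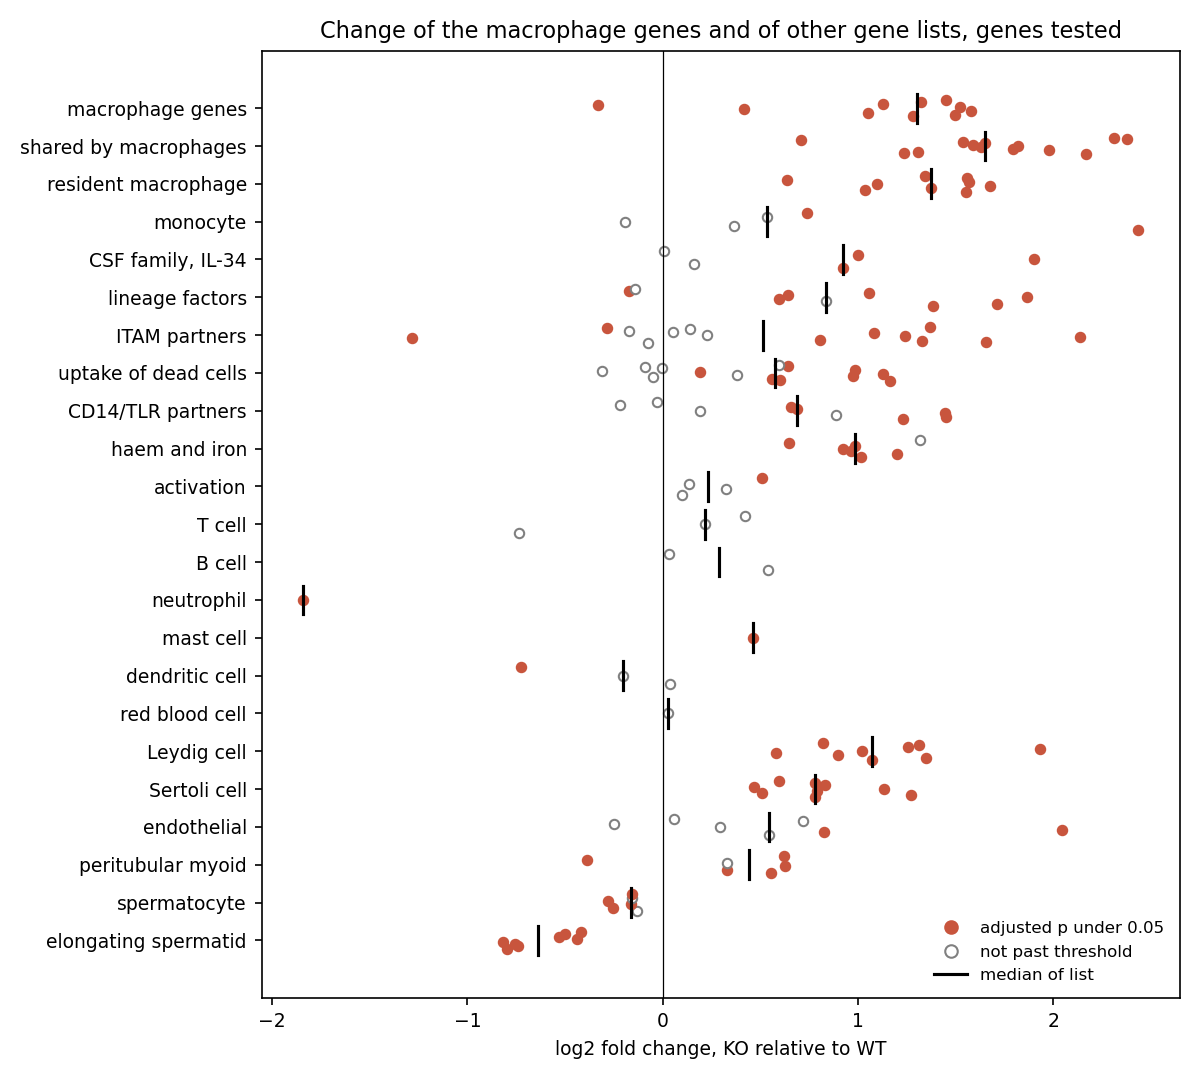
LFC of each gene tested in the macrophage lists and the lists for other cell types, 1 point per gene, filled where the adjusted p was under 0.05, with the list median as a line. The pan-macrophage, resident, Leydig and Sertoli lists lie wholly above 0 and the spermatid list wholly below.

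The lists for other leukocytes were mostly too low to test. Of 42 markers of T, B, NK, neutrophil, mast and dendritic cells, 41 had a row and 10 were tested: 1 rose, 2 fell and 7 did not pass. Of the 34 genes on the macrophage and monocyte lists 27 were tested, with 24 higher, 0 lower and 3 not past. Some of these, such as Ly86 (8, 10 and 5 reads in WT) and Ccr2 (16, 1 and 7), passed the filter through their KO libraries. Such genes could hardly come out lower, so the filter sets part of this split. Without the filter, 13 pan-macrophage, 11 resident and 2 monocyte genes were higher and 0 were lower in each list. Genes of few WT reads could hardly come out lower there either, so these counts do not check the split. No list gene with a row was at 0 in every library.

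The T cell genes gave values of either sign, Cd3d at LFC -0.74 (edgeR adjusted p = 0.228) and Lck at 0.42 (edgeR adjusted p = 0.197), with summed levels of 4.26 to 5.75 CPM in WT and 4.26 to 8.3 CPM in KO. The B cell sum was 6.06 to 7.16 CPM in WT and 7.14 to 8.26 CPM in KO, and the NK sum 0.254 to 0.677 and 0.476 to 0.567 CPM. Mpo, the neutrophil peroxidase, fell from 86, 69 and 53 reads to 13, 28 and 21 (LFC -1.84, SE 0.28, edgeR adjusted p = 0.000459). Hdc, which makes histamine in mast cells, rose (LFC 0.46, edgeR adjusted p = 0.000893). Mpo and Hdc were each the only gene tested of their list, and in each list 7 others had too few reads. Whether their reads came from neutrophils or mast cells was not tested. Ccr7, found on dendritic and T cells, was at LFC -0.72 (edgeR adjusted p = 0.0179) and kept its call in 8 of the 14 alternatives; it was lost without WT1 (0.0655), WT2 (0.0581) or KO2 (0.0744).

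The genes whose levels over the 6 libraries were most like the mean standardized profile of the members were Rnaseh1, Tnfrsf21, Pdcd11, Adrbk1, Pdia5, Tmtc2, Zfp36 and Snx5, with Pearson's r of 0.997 to 0.999 across 6 libraries that fall into the 2 genotypes. Their LFCs ran from 0.22 for Adrbk1 to 1.11 for Tnfrsf21. The likeness describes a shared split between the genotypes with little spread inside them, and none of the 8 stands on a macrophage list.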

How the data were processed

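Total RNA of whole testes from 3 WT and 3 KO mice was sequenced by the authors, and the deposited table gives raw read counts per gene symbol, neither normalized nor pooled. The submitters' processing notes name bcl2fastq 1.8.4, TopHat, the mm10 build and DESeq2; the counting tool, its annotation and its use of strand are not given in the sources used here. Columns with the authors' own comparison (means, LFC, p-values) were not used. Of 17933 rows, 2 repeated a symbol, which left 17931. ChIP-seq samples were not analysed here.

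Counts were tested with edgeR 4.0.16 (R 4.3.3; filterByExpr with a minimum count of 10, TMM, glmQLFit and glmQLFTest, two-sided, Benjamini-Hochberg over 14640 genes, threshold 0.05), without a pair term; the script recovered known folds in simulated data. CPM used TMM-scaled library sizes, and RPKM divided CPM by the union of GENCODE exons on GRCm38.p6; promoters are from RefSeq. A constant of 0.1 was added to CPM before the logs of marker means. Errors after ± are SDs over 3 animals, and SE is the standard error of the fitted LFC. The edgeR p-values set the difference against the spread between these animals, with dispersion estimates shared in part across genes. Shallow genes carry more counting error. The simulated data changed only deeper genes, with a small fixed spread, and did not cover shallow ones. Replicate numbers pair littermates per the labels and the study's methods. Same-number libraries correlated in their deviations at 0.145, 0.0363 and 0.121, other WT and KO library pairs at most at 0.0330. Members and lists were chosen with earlier results of these data known. Genes named beside the members were, per list, the one with the highest CPM and up to 3 with the largest LFC past the threshold. A few fixed names, the 8 genes most like the members and the 8 most like Aif1 were added. Alternatives were other normalizations and filters, DESeq2 1.42.0, the replicate block, and leaving out each library.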

Additional observations from a re-analysis of the deposited data

How the results depend on the processing

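All 10 macrophage genes kept their direction and their call in each of 14 alternatives, which gave 140 results without a change. Leaving out each library in turn gave 9 higher and 1 lower each time, a median LFC of 1.23 to 1.33, and 2978 to 3990 genes higher and 2134 to 3405 lower over the whole table. With a replicate block for the littermate pairs edgeR called 6743 genes (3736 higher, 3007 lower), beside 6649 without it (3634 higher, 3015 lower), and the members again gave 9 and 1 with a median LFC of 1.30; among the genes named, the block changed the call of Irak3, as given above. DESeq2 with the replicate block called 2193 genes higher and 2386 lower, and it gave 1 gene higher instead of 3 in the CSF family, 1 instead of 2 among monocyte markers and 3 instead of 5 among the Cd14 partners, and 0 instead of 2 lower among the adaptor partners; it left without a call Spi1 (adjusted p = 0.0573), Tlr2 (0.0852), Csf2rb2 (0.0945), Il34 (0.258), Vsig4 (0.112), Cx3cr1 (0.08), Fcgr3 (0.133), Scarb1 (0.0842) and Ccr7 (0.164). In that DESeq2 fit 4 lineage factors were higher instead of 6, and 5 adaptor partners instead of 7. Pan-macrophage genes went from 13 to 12 higher, and haem and iron genes from 6 to 5. Uptake genes went from 8 to 7 higher, and peritubular myoid markers from 4 to 3. Library size alone gave 5343 genes higher and 1268 lower. Ratios near 0 changed sign without single libraries: log2 Tyrobp over Csf1r differed by -0.16 with all libraries and ranged from -0.38 to 0.010 with each library left out (0.010 without WT1), and log2 Fcer1g over Csf1r differed by 0.02 with all libraries and ranged from -0.11 to 0.18 (-0.11 without WT2, -0.01 without WT3 and -0.07 without KO1). The p of log2 Cd68 over Csf1r was 0.1 with all libraries and 0.2 with a prior count of 0.5 and without WT1, WT2, WT3 or KO2, in the exact permutation test. The cause was not tested. Without Aif1, an alternative chosen after seeing the data, the members' median LFC was 1.32. Depth limits Cd14, Tyrobp and Cd163 most, which had 12 to 41 reads in the WT libraries.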
